A study of Mus musculus with 11 samples.

Results

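Very long gene bodies were examined by DNA methylation in the newborn mouse pancreas. These are autosomal genes whose deposited start and end lie at least 200 kb apart, with coverage averaging 10 or more in each treatment group, and 976 of the 25802 genes in the table met this rule. All 976 had values in all 11 mice, and the 149 without a promoter in the deposited table entered only the results on bodies. They ranged from 200 kb to 4435 kb (median 319 kb), and 49 were longer than 1000 kb. GENCODE vM21 listed 971 of them, 912 as protein-coding. Their coverage in saline mice ran from 94.5 to 156541 (median 2822).

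The assay was RRBS, a reduced representation form of bisulfite sequencing: MspI and TaqI cut DNA at CpG-containing sites, and bisulfite separates methylated from unmethylated cytosines. The pancreata came from wild type C57BL/6N mice, whose dams had been injected with amphetamine at 10 mg/kg on embryonic days 14.5, 15.5 and 16.5 (5 mice, 3 females and 2 males) or belonged to the saline group (6 mice, 3 females and 3 males). The question was whether prenatal amphetamine or sex moved methylation in the bodies of these genes. The tissue was whole pancreas, so a change in the cells that make it up and a change within cells cannot be told apart. No expression was measured in these libraries, so the tissue label could not be checked against marker genes, and the litter of each mouse was not used here.

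In mammals, the CpG sites inside genes are mostly methylated, whereas CpG islands at gene starts are usually free of methylation. The longest genes of the mouse include many that encode synaptic adhesion proteins, axon guidance receptors and ion channels, most of them described in neurons, and some that lie at common fragile sites. The islet uses several of the same proteins, among them calcium channels and the scaffolds of vesicle exocytosis.

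To show what separates a methylated from an unmethylated start of a very long gene, the 250 bases just before 4 gene starts are given, read from the mouse reference genome GRCm38 (the mm10 assembly of the tables), 5′ to 3′ on the strand of the gene, with each CG in capitals. Mad1l1 (chr5:140321553-140321802, - strand), a gene of the spindle checkpoint, and Pebp4 (chr14:69840170-69840419, + strand), a phosphatidylethanolamine-binding protein, were the genes whose treatment groups did not overlap. Celf2 (chr2:7509564-7509813, - strand), an RNA-binding splicing regulator, and Cacna1c (chr6:119196419-119196668, - strand), the pore subunit of an L-type calcium channel, had the most methylated promoters among those with a coverage of at least 10.
Mad1l1: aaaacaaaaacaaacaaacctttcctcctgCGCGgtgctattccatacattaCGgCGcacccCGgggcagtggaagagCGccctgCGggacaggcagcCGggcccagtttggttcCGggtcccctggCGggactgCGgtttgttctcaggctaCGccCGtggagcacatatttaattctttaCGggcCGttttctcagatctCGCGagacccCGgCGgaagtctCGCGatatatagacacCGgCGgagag
Pebp4: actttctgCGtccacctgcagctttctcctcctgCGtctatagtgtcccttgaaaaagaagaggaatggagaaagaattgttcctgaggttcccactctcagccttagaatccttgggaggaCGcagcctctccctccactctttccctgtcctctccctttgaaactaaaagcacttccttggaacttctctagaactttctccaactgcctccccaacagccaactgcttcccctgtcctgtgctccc
Celf2: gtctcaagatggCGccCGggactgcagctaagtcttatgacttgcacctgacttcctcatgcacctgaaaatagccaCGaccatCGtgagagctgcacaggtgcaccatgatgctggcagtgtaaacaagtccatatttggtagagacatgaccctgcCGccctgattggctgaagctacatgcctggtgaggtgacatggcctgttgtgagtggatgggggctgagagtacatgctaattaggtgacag
Cacna1c: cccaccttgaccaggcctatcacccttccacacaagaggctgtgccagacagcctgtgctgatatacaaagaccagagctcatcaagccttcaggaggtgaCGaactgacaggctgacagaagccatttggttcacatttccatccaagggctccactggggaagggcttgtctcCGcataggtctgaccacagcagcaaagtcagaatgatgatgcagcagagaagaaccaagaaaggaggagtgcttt
The window of Mad1l1 held 23 CG, and its promoter (2000 bp, from 1500 bp before the start to 500 bp into the gene) had a saline level of 3.86%. The windows of Pebp4, Celf2 and Cacna1c held 3, 5 and 2 CG, and their promoters stood at 61.1%, 96.9% and 96.9%. This contrast ran through the set. The window could be read for 808 covered promoters of very long genes, and it held a median of 19 CG in the 595 with a saline level under 5% and of 4 CG in the 50 with a level over 50%. At least 1 CG (the search was for the letters CG, which read the same on both strands) was present in 99.9% of the 808 windows and in 98.5% of the 18759 windows of all autosomal promoters at this coverage. The MspI site CCGG was present in 75.7% of the 808 and in 68.9% of all, and the TaqI site TCGA in 21.2% and 23.3%. Each of these sites contains a CG and reads the same on both strands.

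The bodies of very long genes were more methylated than those of shorter genes. The median saline body level, the authors' mean over the saline mice, was 67.8% over the 976 genes (interquartile range 57.4% to 78.1%). It was 56.3% in 1524 genes of 100 to 200 kb, 50.9% in 2642 genes of 50 to 100 kb, 47.3% in 5350 genes of 20 to 50 kb, 42.3% in 7394 genes of 5 to 20 kb and 52.8% in 5747 genes under 5 kb. Very long genes were also more alike, with 3 of 976 (0.307%) under 20% methylation, against 2.89% of genes of 100 to 200 kb and 23.4% of all shorter genes. The share over 80% did not follow length in 1 direction. It was 20.2% in very long genes, 13.3% at 100 to 200 kb, 14.8% at 50 to 100 kb, 17.2% at 20 to 50 kb and 31.6% under 5 kb. Lengths, coverage and CpG content all differ between these classes, and genes are not replicates, so these values are given as a description without a test.

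**Figure D1:**
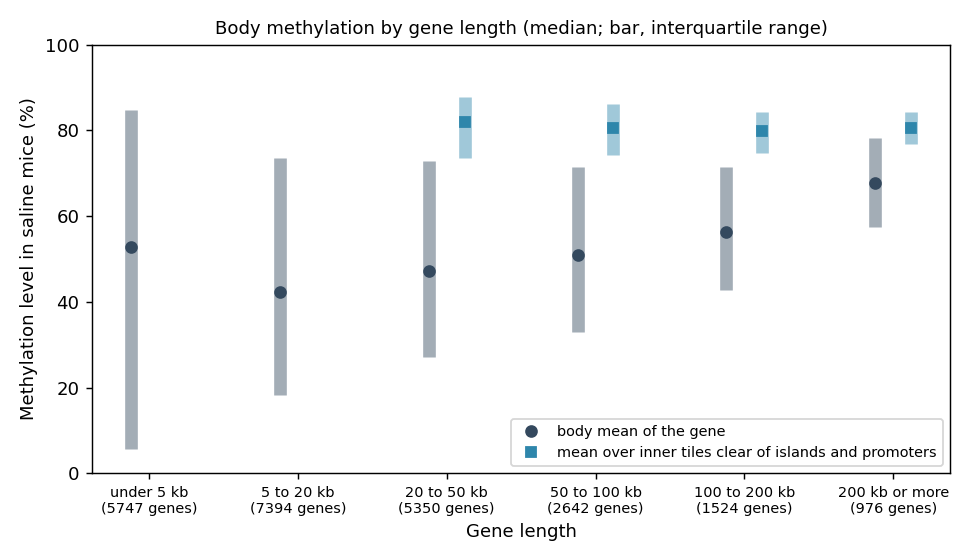
Saline methylation level (percent, vertical axis) by gene length (horizontal axis). Circles are medians of the body means and squares are medians of the mean over inner 5 kb tiles that overlap neither a CpG island nor a promoter, for genes of at least 20 kb; bars are interquartile ranges over genes. The circles climb from 47.3% at 20 to 50 kb to 67.8% at 200 kb or more, while the squares stay between 79.9% and 81.9%.

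The level went on increasing with length inside the set. The median saline level was 64.3% in 443 genes of 200 to 300 kb, 67.9% in 330 genes of 300 to 500 kb, 73.9% in 154 genes of 500 to 1000 kb and 77.2% in the 49 genes over 1000 kb. Across the 976 genes, Spearman's rho of length and level was 0.23, a description over genes that share mice and libraries. The 56 long non-coding genes had a median of 81.4%, against 67.4% in the 912 protein-coding genes.

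The longest genes with a symbol were Gm20388, Fgfr2, Ptprd, Cntnap2 and Lsamp. Gm20388 (4435 kb, chromosome 8) had a saline level of 44.8% ± 0.416 (SD, n = 6), and Fgfr2 (2961 kb), a fibroblast growth factor receptor, 44.3% ± 1.47 (SD, n = 6). Gm20388 overlaps Gse1, another very long gene. The models of Gm20388 and Fgfr2 have the same length in GENCODE vM21, but both span many other genes. Their levels therefore average over those genes as well. Of the coverage of their inner tiles, 29.5% and 33.2% lay in tiles with a CpG island. Ptprd (2271 kb), a receptor tyrosine phosphatase of synapses, stood at 74.7% ± 1.34, Cntnap2 (2241 kb), a neurexin family member at axons, at 84.8% ± 1.61, and Lsamp (2197 kb), an adhesion protein of the immunoglobulin superfamily, at 85.7% ± 1.29 (SD, n = 6 each). The share of island coverage was 8.85% in Ptprd, 0.648% in Cntnap2 and 0.00% in Lsamp. In each of these 5 genes the amphetamine mean was within 1 percentage point of the saline mean, with adjusted p of 0.992 to 0.999 (limma).

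Among the least methylated bodies, Ssbp2, a single-stranded DNA-binding protein, stood at 16.2% ± 2.02, Pbx3, a homeodomain transcription factor, at 16.8% ± 1.45, and the non-coding genes A330033J07Rik and E130114P18Rik at 23.9% ± 2.94 and 24.4% ± 2.66 (SD, n = 6 each). The amphetamine means of Ssbp2 and Pbx3 were 14.96% ± 1.20 and 15.1% ± 1.17 (SD, n = 5 each), and their groups overlapped. Ssbp2 and Pbx3 did not differ from each other by more than their SDs, and neither did the pair of non-coding genes. At the high end, Agmo, an ether lipid monooxygenase, had 90.1% ± 5.91, Cntn3, a contactin, 90.1% ± 3.92, Adamts6, a secreted metalloprotease, 89.8% ± 6.71, A330093E20Rik 89.8% ± 2.54 and Prim2, a DNA primase subunit, 89.6% ± 1.62 (SD, n = 6 each). The order among these 5 is smaller than their SDs.

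A low body level did not mean low methylation along the gene. In Ssbp2 and Pbx3 the 5 kb tile that contains the gene start stood at 2.57% and 2.16%, at a coverage of 1779 and 1348 where the whole genes had 2582 and 1892. Tiles wholly inside the genes, here called inner tiles, made up 29.9% and 38.6% of the coverage and averaged 84.5% and 78.2%. The 11 covered inner tiles of Ssbp2 ranged from 52.9% to 98.5%. Coverage is read here as the sum of the reads at all CpG sites in a gene or tile. How the deposited body mean weights these sites was not tested, and a share of coverage need not be their weight in it.

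A low start and high inner tiles were also seen over the set as a whole. Of the 865 genes whose start tile had a coverage of at least 10, the median start tile level was 3.99% (interquartile range 2.23% to 10.7%), and 719 were under 20%. It was 3.17% in the 659 start tiles with a CpG island and 30.7% in the 206 without. Inside the genes lay 34449 distinct tiles, 29776 of them at a coverage of at least 10. Among tiles with neither island nor promoter the median was 77.1% for tile centres within 5 kb of the start, 80.4% at 5 to 10 kb, 83.7% at 10 to 20 kb, and between 83.8% and 84.9% in every bin from 20 kb to beyond 500 kb. The start tiles keep their islands and promoters, whereas these bins leave such tiles out, so unlike kinds of tile are compared. Among the tiles left in, the medians rose over the first 10 kb, and those of all later bins stayed between 83.7% and 84.9%.

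**Figure D2:**
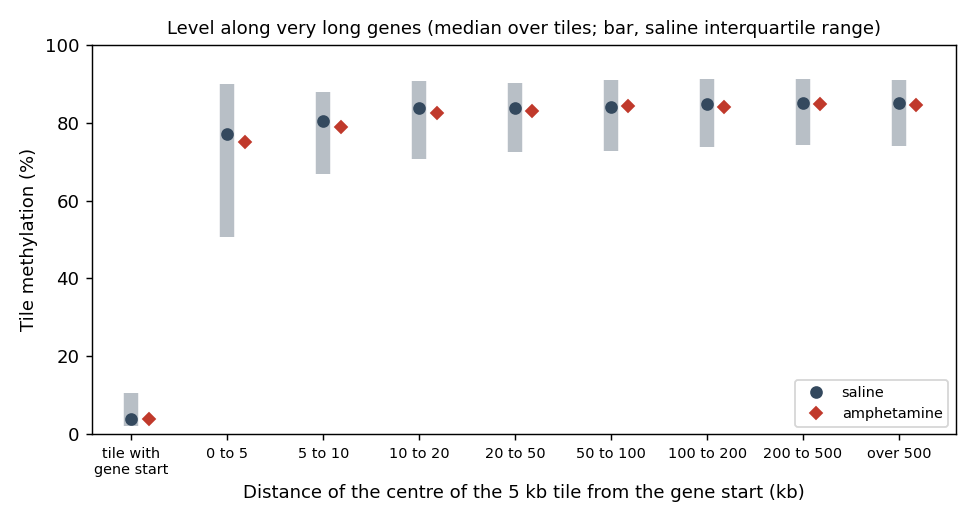
Tile methylation (percent, vertical axis) by distance of the tile centre from the gene start (kb, horizontal axis) in very long genes. The first position is the tile that contains the start; the others hold only inner tiles with neither CpG island nor promoter. Circles are saline medians over tiles, diamonds amphetamine medians and bars saline interquartile ranges. The start tile lies at 3.99% and all positions from 10 kb on at 83.7% or more in saline.

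Measured this way, very long and shorter genes were nearly alike. Over inner tiles with neither island nor promoter and more than 10 kb from the start, the median saline level was 84.6% in very long genes, 83.3% in genes of 100 to 200 kb, 83.8% in genes of 50 to 100 kb and 84.4% in genes of 20 to 50 kb. Per gene, the mean of inner tiles with neither island nor promoter had a median of 80.6% in very long genes and of 79.9%, 80.6% and 81.9% in the 3 next shorter classes. The share of a gene's coverage that such tiles supplied differed by length. Its median was 84.8% in very long genes, 72.2% at 100 to 200 kb, 60.9% at 50 to 100 kb and 47.3% at 20 to 50 kb. Across the 976 genes, this share and the body level had a Spearman's rho of 0.78, a description over genes in which both quantities come from the same reads.

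CpG islands inside these genes stayed low. At a coverage of at least 10, 658 islands lay wholly within very long genes, in 355 of them, with a median saline level of 2.40%. Of the 444 islands more than 10 kb from the start, 328 were under 20%, 55 between 20% and 80%, and 61 over 80%. Tiles with an island made up 579 of the 29776 covered inner tiles and had a median of 8.33%, against 84.5% in the 28414 tiles with neither island nor promoter and 79.4% in the 783 with a promoter of any gene and no island.

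The sequence content changed along with length. Very long genes had a median of 7.97 CpG and 1.02 MspI or TaqI sites per kb, against 9.45 and 1.19 in genes of 100 to 200 kb, and 11.5 and 1.52 in genes of 20 to 50 kb. CpG sites within 50 bp of such a site numbered 2.03 per kb in very long genes. In genes of 20 to 50 kb they numbered 3.77 per kb. This count comes from the sequence alone and takes no account of fragment size, so reads need not reach every such site.

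Body and promoter of the same gene were next compared. Of the 976 genes, 827 had a promoter in the deposited table, 813 of them at a coverage of at least 10. The median saline promoter level was 2.70% (interquartile range 1.63% to 5.28%), and the body exceeded the promoter of the same gene by a median of 59.7 percentage points in saline mice and 59.5 in amphetamine mice. The difference had a median of 45.7 points in genes of 100 to 200 kb and 27.7 points in genes of 20 to 50 kb, where promoter medians were 2.77% and 3.24%. The promoter level thus hardly changed with length above 20 kb, and the wider difference came with the higher body level. Promoter and body share the 500 bp after the gene start.

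**Figure D3:**
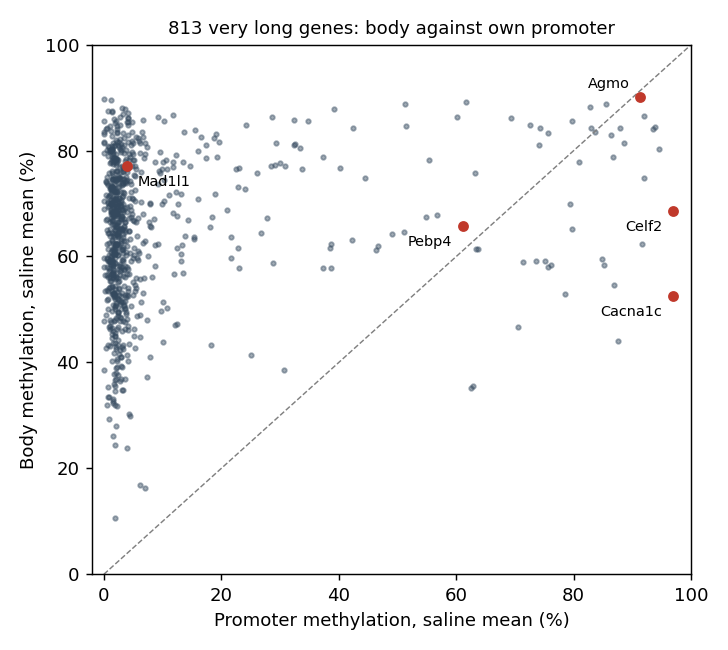
Saline body level (percent, vertical axis) against saline promoter level (percent, horizontal axis) of the 813 very long genes with a covered promoter, 1 point per gene; the dashed line marks equal levels and red points the named genes. Most points lie near the left edge, and 32 lie below the line.

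In 32 of the 813 genes the promoter was more methylated than the body, and 51 promoters (6.27%) exceeded 50%, against 9.03% in genes of 100 to 200 kb, 10.2% at 50 to 100 kb and 42.6% under 5 kb. Highest at this coverage were Celf2 at 96.9% ± 4.82, Cacna1c at 96.9% ± 5.37, Klf12, a Krüppel-like transcription factor, at 94.4% ± 13.6, Setbp1, a DNA-binding protein of chromosome 18, at 93.8% for one of its pair of deposited gene records, and the non-coding gene 4933436I20Rik at 93.5% (SD, n = 6 for the first 3). The promoters of Cacna1c, Klf12 and 4933436I20Rik had a mean coverage of only 17.8, 14.3 and 10.8 in the treatment group with less, against 228.8 for Celf2. The start used for such a gene may not be its only one, and other starts were not examined. In Celf2 and Cacna1c the bodies stood at 68.6% ± 2.55 and 52.6% ± 2.25 (SD, n = 6 each), below their own promoters. Promoters over 20% had a median of 32.5 CpG in 2000 bp and a median coverage of 62.2, against 93 CpG and a coverage of 369 for promoters under 5%. Bodies had a median of 65.2% where the promoter was under 5% and 75.8% where it was over 50%.

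Spread between mice was smaller in very long genes. The median SD among saline mice was 2.70 percentage points, against 3.76 at 100 to 200 kb, 4.48 at 50 to 100 kb, 5.49 at 20 to 50 kb and 7.56 under 5 kb. In amphetamine mice it was 2.41 points, and the saline SD was the larger in 585 of 976 genes (59.9%, against 59.5% of all autosomal genes). Coverage moved with length: the median in saline mice was 2822 in very long genes and 524 in genes of 20 to 50 kb. Within bins of the coverage of the group with less, the classes drew close. At a coverage of 2000 to 5000 the median saline SD was 2.67 points in 501 very long genes, 2.997 in 413 genes of 100 to 200 kb and 3.08 in 243 genes of 50 to 100 kb. At 1000 to 2000 it was 3.41, 3.76 and 3.80. The body level did not draw close within these bins, with 68.0% against 55.9% and 46.9% at a coverage of 2000 to 5000.

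**Figure D4:**
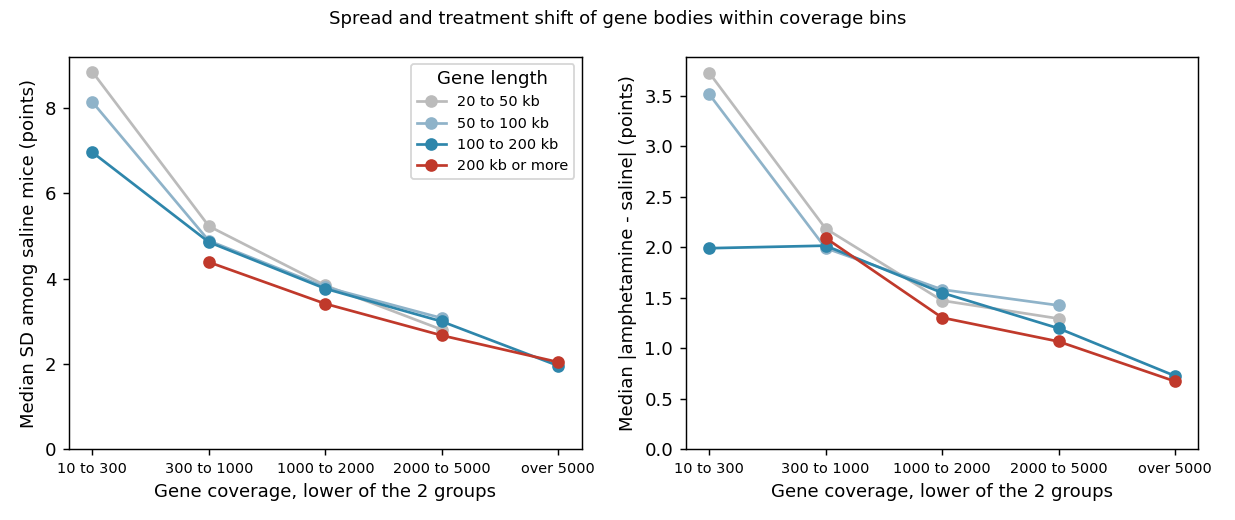
Median SD among saline mice (left, percentage points) and median size of the difference between amphetamine and saline means (right, percentage points) by gene coverage in the group with less (horizontal axis), 1 line per length class; bins with fewer than 20 genes are left out. The SD falls with coverage in every class shown, and at 2000 to 5000 very long genes lie at 2.67 and 1.07 points.

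The widest saline SDs among genes with a symbol belonged to genes of 206 to 287 kb. Gabrb2, which encodes a GABA-A receptor subunit, had 64.8% ± 16.1 (SD, n = 6; lowest 49.96%, highest 87.6%). Next were Dennd1b (SD 11.3 points), an exchange factor for Rab proteins, Sema3d (10.8 points), a secreted semaphorin, Pdgfd (10.7 points), a platelet-derived growth factor, and Shisa9 (10.5 points), an AMPA receptor auxiliary protein. In all, 6 genes had a saline SD over 10 points, and 838 had an SD under 5 points in both groups.

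No very long gene differed between treatment groups after adjustment. With limma's moderated test on group means and SDs, adjusted over all 25525 genes tested, 0 of the 976 had an adjusted p under 0.05, where the share called over all genes was 0.00784%. At an unadjusted p under 0.05, 22 of 976 (2.25%) were counted, 8 higher and 14 lower after amphetamine, against 4.16% of all autosomal genes at this coverage (1.93% higher and 2.23% lower). That gap depends on the variance model: with the prior variance fitted as a trend on coverage, 43 of 976 (4.41%) passed, against 4.46% of autosomal genes, while a robust prior gave 20 (2.05%, against 4.02%) and the logit scale 7 (0.717%, against 4.64%). The smallest adjusted p of a very long gene was 0.992 in the test as planned, and between 0.731 and 0.994 in the other settings.

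The differences themselves were small. The median difference between amphetamine and saline was -0.18 percentage points over the 976 genes, and its size had a median of 1.07 points, against 1.49 at 100 to 200 kb and 2.32 at 20 to 50 kb. The amphetamine mean was the higher in 431 genes (44.2%) and the lower in 545, against 47.9% higher among all shorter genes. In genes of 100 to 200 kb 42.8% were higher, with a median difference of -0.38 points, so the lean was not particular to very long genes. In 897 genes the difference was smaller than the larger of the 2 group SDs, and in 20 it exceeded 5 points.

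The groups did not overlap in 2 of 976 genes (0.205%), 1 in each direction, against 0.326% of autosomal genes (0.152% higher and 0.173% lower). Mad1l1 (chromosome 5, 140008689 to 140321552) had 77.1% ± 2.03 in saline mice (SD, n = 6; lowest 74.3%, highest 79.1%) and 71.8% ± 1.99 in amphetamine mice (SD, n = 5; lowest 68.6%, highest 73.6%), a difference of -5.28 points with a standard error of 1.54. Every amphetamine mouse lay below every saline mouse, by a gap of 0.629 points, but the adjusted p was 0.992 (limma). Of its 31 inner tiles with a coverage of at least 10, 21 were lower and 10 higher after amphetamine, and no tile passed the adjusted test. Its promoter stood at 3.86% ± 3.28 in saline and 2.54% in amphetamine mice. Pebp4 (chromosome 14, 69840420 to 70059886) had 65.7% ± 2.45 in saline mice (SD, n = 6; lowest 60.8%, highest 67.5%) and 68.8% ± 0.483 in amphetamine mice (SD, n = 5; lowest 67.9%, highest 69.1%), a gap of 0.406 points with an adjusted p of 0.992 (limma). Its 29 covered inner tiles were split into 18 higher and 11 lower.

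**Figure D5:**
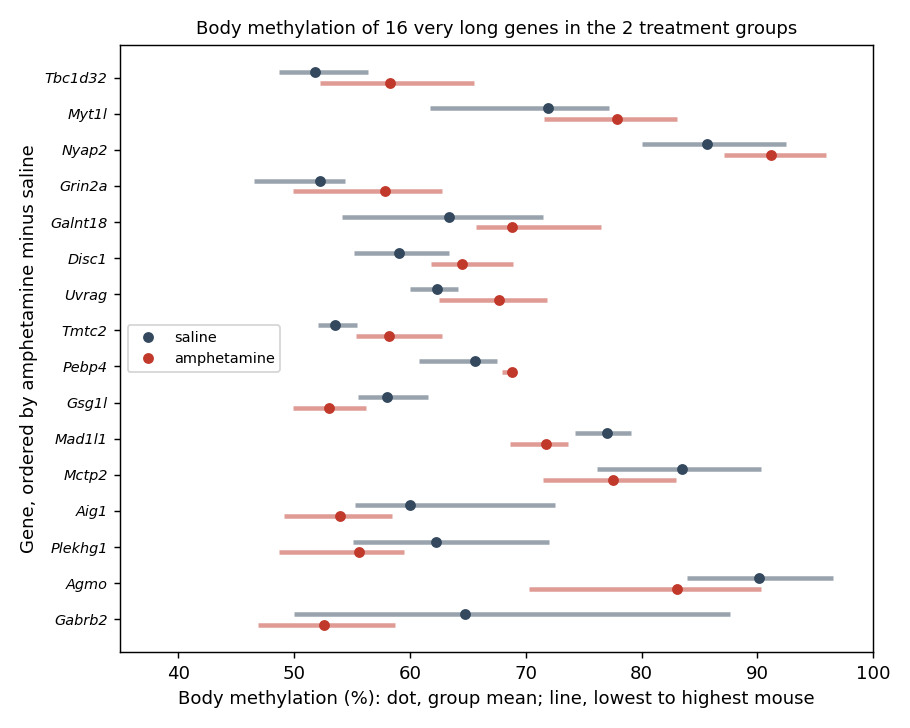
Body methylation (percent, horizontal axis) of 16 very long genes with the largest differences, the smallest p or no overlap (vertical axis, ordered by amphetamine minus saline). Dots are group means and lines run from the lowest to the highest mouse, for 6 saline and 5 amphetamine mice. The lines of Mad1l1 and Pebp4 do not overlap; those of the other 14 genes do.

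After Mad1l1, the smallest p belonged to Gsg1l, an AMPA receptor auxiliary protein (58.0% ± 2.40 in saline, 53.0% ± 2.35 in amphetamine), Uvrag, an autophagy protein (62.3% ± 1.82 and 67.7% ± 3.68), Tmtc2, a mannosyltransferase (53.6% ± 1.46 and 58.2% ± 2.97), and Disc1, a scaffold protein of neurons (59.1% ± 2.87 and 64.5% ± 2.91; SD, n = 6 and 5). All 4 had an adjusted p of 0.992 (limma) and overlapping ranges. In Tmtc2 the lowest amphetamine mouse minus the highest saline mouse was -0.0483 points, so the ranges met almost end to end.

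The largest difference belonged to the gene with the widest spread. Gabrb2 stood at 52.5% ± 4.62 in amphetamine mice (SD, n = 5; lowest 46.9%, highest 58.7%), a difference of -12.2 points from a saline mean whose SD was larger than that. Its inner tile nearest the start, which had the highest coverage of its 6 covered inner tiles, stood at 12.7% ± 10.4 in saline and 1.63% in amphetamine mice (adjusted p 0.978, limma). Agmo, Plekhg1, Aig1, a fatty acid ester hydrolase, and Mctp2, a C2 domain membrane protein, differed by -7.11, -6.70, -6.06 and -5.94 points. The amphetamine mean was above the saline mean in Tbc1d32, a ciliary protein, by 6.50 points, Myt1l, a zinc finger transcription factor of neurons, by 5.96, Nyap2, an adaptor of phosphoinositide signalling, by 5.59, Grin2a, an NMDA receptor subunit, by 5.53, and Galnt18, of a glycosyltransferase family, by 5.44. All 10 had overlapping groups and an adjusted p of 0.992 (limma). Gabrb2 and Grin2a, both subunits of transmitter receptors, lay at opposite ends.

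Promoters of very long genes gave no adjusted call either. Of the 813 covered promoters, 0 had an adjusted p under 0.05 (limma; 0.00418% of all 23910 promoters tested), and 30 (3.69%) an unadjusted p under 0.05, 18 higher and 12 lower, against 3.77% of autosomal promoters (430 of 21550 higher and 1.77% lower). The differences were of like size in bodies and promoters, with a median of 1.07 points in the 976 bodies and 1.11 points in the promoters, although the promoter level is far lower. Their directions matched only slightly more often than not: body and promoter had the same sign in 433 of 806 genes, with a Spearman's rho of 0.13. The groups did not overlap in 3 promoters (0.369%, against 0.441% of autosomal promoters), and these 3 are named after their values were seen. Ccdc171, a coiled-coil protein, had 0.491% ± 0.741 in saline and 3.81% ± 0.99 in amphetamine mice, Unc5d, a netrin receptor, 0.303% ± 0.742 and 3.77% ± 2.19, and Nr3c2, the mineralocorticoid receptor, 0.268% ± 0.407 and 2.30% ± 0.721 (SD, n = 6 and 5). All 3 were higher after amphetamine and remained under 5% on average, with adjusted p of 0.773, 0.969 and 0.969 (limma).

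Among the 5 kb tiles, adjusted over all 254149 tested, 2 passed an adjusted p of 0.05, and both lay inside very long genes, which hold 14.2% of the tested autosomal tiles. In Etl4, a gene of vertebral disc development (chromosome 2, 20370001 to 20375000, 463 kb from the start), all 6 saline mice were at 100%, and the 5 amphetamine mice at 49.6% ± 9.57 (SD; lowest 35.5%, highest 62.5%; adjusted p 0.0281, limma). In Magi2, a scaffold of synapses and junctions (chromosome 5, 20250001 to 20255000, 1025 kb from the start), 5 saline mice with reads were at 100% and 3 amphetamine mice with reads at 48.0% ± 3.46 (SD; adjusted p 0.0304, limma). Mean coverage was 30.5 and 55.0 in the groups for the Etl4 tile and 15.8 and 13.0 for the Magi2 tile. A fixed value of 100% leaves no spread in the saline group, on which both tests rest, and the Magi2 body as a whole had 73.4% ± 1.97 in saline and 71.8% ± 0.609 in amphetamine mice (SD, n = 6 and 5; adjusted p 0.992, limma). At an unadjusted p under 0.05, 4.45% of covered inner tiles passed, against 4.08% of all covered autosomal tiles, and the groups did not overlap in 0.477% against 0.427%.

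The genes were then read by function. The 21 synaptic adhesion genes had a median saline level of 75.3% (range 60.6% to 86.2%), with 8 higher and 13 lower after amphetamine and a median difference of -0.13 points. Tenm3, a teneurin, was lowest at 60.6% ± 1.52 and Lrrtm4, a postsynaptic adhesion protein, highest at 86.2% ± 2.17 (SD, n = 6 each). Nlgn1, the postsynaptic partner of neurexins, had the smallest p of the list, with 80.4% ± 3.21 in saline and 76.2% ± 1.77 in amphetamine mice (SD, n = 6 and 5; adjusted p 0.992, limma). The 14 cadherins and catenins had a median of 77.8%, from Pcdh7, a protocadherin, at 45.03% to Cdh18 at 86.6%, with 6 higher and 8 lower. Its longest member, the catenin gene Ctnna3, had 81.3% in both groups, and Cdh20, with the smallest p, 81.4% ± 3.66 in saline and 79.5% ± 2.15 in amphetamine mice (SD, n = 6 and 5; adjusted p 0.992, limma). The 14 genes at fragile sites or of like length stood at 76.9% in the median, from Esrrg, an orphan nuclear receptor, at 46.7% to Lrp1b, a giant endocytic receptor, at 87.6%, with 5 higher and 9 lower. Csmd3, a large transmembrane protein with the smallest p of this list, had 81.0% ± 2.003 in saline and 78.8% ± 2.42 in amphetamine mice (SD, n = 6 and 5; adjusted p 0.992, limma). In each of these 3 lists 0 genes passed the adjusted test (limma). At an unadjusted p under 0.05 there were 1 of 21, 0 of 14 and 0 of 14 (limma). The share was 2.25% of all very long genes and 4.16% of autosomal genes.

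Axon guidance genes were lower, at a median of 61.0% over 16 genes, from Slit2, a ligand of Robo receptors, at 32.0% ± 3.37 to Unc5d at 84.1% ± 1.64 (SD, n = 6 each). Here 10 were higher and 6 lower after amphetamine, with a median difference of 0.76 points and 0 of 16 genes past either the adjusted or the unadjusted threshold (limma). Dcc, the netrin receptor and longest of the list, stood at 77.2% in saline mice. Epha5, an ephrin receptor, had the smallest p of this list, at 57.5% ± 2.24 in saline and 60.0% ± 4.06 in amphetamine mice (SD, n = 6 and 5). Lowest of the 8 lists were the 28 transcription regulators, at a median of 53.7%, from Pbx3 at 16.8% to Esr1, the oestrogen receptor, at 76.6%, with 15 higher and 13 lower and none past either threshold (limma). Sox5, a cartilage and neuron regulator and the longest of them, stood at 75.1% in saline and 75.04% in amphetamine mice. A median of 8.70% of their inner coverage lay in island tiles, against 0.00% over the 976 genes, and their inner tiles with neither island nor promoter had a median of 75.1%, against 80.6%.

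Genes of excitability were intermediate. The 25 ion channel genes had a median of 68.0%, from Cacna1a, a calcium channel pore subunit, at 38.5% ± 2.51 to Dpp10, a potassium channel auxiliary subunit, at 87.9% ± 2.29 (SD, n = 6 each), with 14 higher and 11 lower. Kcnip4, which encodes a potassium channel-interacting protein and is the longest of them, stood at 77.6% in saline and 75.6% in amphetamine mice. Kcnq1, a potassium channel in an imprinted domain, had 61.0% ± 3.61 in saline and 56.5% ± 2.26 in amphetamine mice (SD, n = 6 and 5; adjusted p 0.992, limma) and was the 1 of 25 with an unadjusted p under 0.05. The 19 transmitter receptors and their scaffolds had a median of 73.4%, with Gria4, an AMPA receptor subunit, highest at 81.4%, with 5 higher and 14 lower and a median difference of -0.91 points. Gphn, the scaffold of inhibitory synapses, was the 1 with an unadjusted p under 0.05, at 68.4% ± 1.90 in saline and 64.1% ± 3.23 in amphetamine mice (SD, n = 6 and 5; adjusted p 0.992, limma). Over all 976 genes, 22 (2.25%) had an unadjusted p under 0.05 (limma), against 4.16% of autosomal genes, and 14 of the 22 were lower.

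The 26 islet and metabolic genes had a median of 66.2%, near the 67.8% of all very long genes, with 12 higher and 14 lower and a median difference of -0.40 points. Rims1, a scaffold of vesicle exocytosis, was lowest at 38.0% ± 0.787, and Gpc5, a glypican, highest at 83.6% ± 2.20 (SD, n = 6 each). Unc13b, a priming factor of exocytosis, had the smallest p of this list, with 47.8% ± 4.39 in saline and 42.9% ± 3.17 in amphetamine mice (SD, n = 6 and 5; adjusted p 0.992, limma). Ptprn2, a protein of insulin granules, stood at 55.4%, Cdkal1, a tRNA-modifying enzyme linked to insulin secretion, at 80.2%, and Igf1r, the receptor of insulin-like growth factor 1, at 71.0% in saline mice, with differences of 0.24, 1.20 and -2.33 points. None of the 26 passed the adjusted or the unadjusted threshold for treatment (limma).

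Females and males were compared over the same 11 mice. In very long genes the female mean was the higher in 615 of 976 (63.0%), against 52.1% of shorter genes, with a median difference of 0.55 points between females and males, against 0.17 in shorter genes. It was the higher in 59.4% of genes of 200 to 300 kb and in 83.7% of the 49 genes over 1000 kb, where the median difference was 0.91 points. Among the 56 long non-coding genes it was the higher in 78.6%, with a median of 1.46 points. Median coverage of very long genes was 3304 in females and 2928 in males. The direction over the set was not tested, since values per mouse were not used here and all genes share the same mice.

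Single genes did not pass. With limma, 0 of 976 had an adjusted p under 0.05 for sex (0.389% of all 25477 genes tested, and 0.0340% of covered autosomal genes), and 25 (2.56%) an unadjusted p under 0.05, 19 higher and 6 lower in females, against 5.24% of autosomal genes (705 of 23508 higher and 2.24% lower). With the trend on coverage these were 59 (6.05%, 45 higher in females), against 5.73% of autosomal genes. The robust prior gave 24 (2.46%, against 5.05%) and the logit scale 12 (1.23%, 11 higher in females, against 5.80%). The groups did not overlap in 5 genes (0.512%, against 0.478% of autosomal genes, 0.309% higher and 0.169% lower), named after their values were seen. Dlg2, a scaffold of excitatory synapses, Map2, a microtubule protein of dendrites, Unc80, a subunit of the sodium leak channel complex, and Chchd6, a mitochondrial cristae protein, were higher in females by 1.83, 3.62, 5.53 and 6.51 points. Ptpla, a fatty acid dehydratase, was lower in females, at 42.9% ± 1.73 against 49.7% ± 3.86 in males (SD, n = 6 and 5), and had the smallest adjusted p of the set, 0.372 (limma). Gria1, an AMPA receptor subunit, stood at 74.0% ± 2.41 in females and 68.6% ± 2.20 in males (SD, n = 6 and 5), with an adjusted p of 0.474 (limma). The lowest female minus the highest male was -0.0809 points, so these ranges just overlapped.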

How the data were processed

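DNA of 11 newborn pancreata was digested with MspI and TaqI and sequenced single-end. The authors used Bismark, run through the NextFlow methylseq workflow on the mm10 genome, and then RnBeads to summarise CpG sites per region (RnBeads version not given in the sources used here). The deposited methylation values are fractions averaged over the mice of a group, printed here as percent; the group SD, lowest and highest mouse and the number of mice without a value were used as deposited. The deposited coverage is a signal averaged over mice and not normalised for depth. Summed over inner tiles it gave a median of 0.921 of the coverage of the gene, so it was read as summed over CpG sites. No read counts or values per mouse were used, so no counting interval is given. Columns with the authors' own differences, log2 quotients, p-values, adjusted p-values and ranks were not used.

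Each group mean, SD and number of mice entered a two-sided moderated test rebuilt with limma 3.58.1 in R 4.3.3 (pooled variance, squeezed over all genes with at least 2 mice in each group, Benjamini-Hochberg adjustment over 25525 genes for treatment, 25477 for sex and 23910 promoters). The rebuilt test was first tested on simulated data with known answers. The simulated shifts were several times each gene's own SD, so this did not measure power for differences of the size seen here. Treatment and sex were tested apart, and neither fit held the other. Replicates are separate mice whose litters were not used here, so p-values measure the spread between these mice. The dams were the treated animals, and any likeness between mice of the same litter is not accounted for in these p-values. Groups that do not overlap were found from the lowest and highest mouse. Tiles of 5 kb counted as inside a gene when both ends were. Medians over tiles used those at a coverage of at least 10. Tile means per gene and shares of a gene's coverage used all inner tiles. A tile or gene without spread in both groups at once was not tested. GENCODE vM21 gave strand and gene type, and GRCm38, checked against the positions on all 19 autosomes, gave CpG and restriction sites. Of the 182 listed symbols, 163 were very long genes.

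The genes and lists were chosen with earlier results of these data known. Genes named are the 5 longest, lowest, highest, most variable, largest in each direction, smallest in p and highest in promoter level, those without overlap, and in each list the longest, lowest, highest and smallest in p; 13 genes without a symbol are counted only. Etl4, Ptprn2, Cdkal1, Igf1r and the genes named for sex or for promoters without overlap lie outside this rule and were chosen after their values were seen. Values of 1 gene that the rule names are not reported here. Python 3.11.15 with pandas 2.3.3, numpy 2.4.6 and scipy 1.17.1 was used.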

Additional observations from a re-analysis of the deposited data

How the results depend on the processing

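No very long gene had an adjusted p under 0.05 for treatment or sex with a variance trend on coverage, a robust prior, a logit scale or adjustment over covered autosomal genes (limma), none for treatment under the other length, coverage and overlap rules, and no promoter with the trend or the logit scale. The unadjusted threshold gave 22 genes (2.25%) for treatment and 25 (2.56%) for sex, against 4.16% and 5.24% of autosomal genes. Genes without overlap between treatment groups numbered 2 of 976 (0.205%), against 0.326% of autosomal genes. They numbered 5 of 2500 at a length of at least 100 kb, 0 of 203 at 500 kb and 1 of the 653 with the same length in GENCODE vM21. The median body level of 67.8% became 61.4% at 100 kb and 74.7% at 500 kb, 79.6% as an equal mean over inner tiles and 80.6% over those with neither island nor promoter. The body exceeded the promoter by 51.3 points at 100 kb and by 68.4 points at 500 kb. The length rules change which genes are counted, and the tile means weight each 5 kb alike. The median saline SD of 2.70 points became 3.28 at 100 kb and 2.05 at 500 kb, and the median treatment shift of -0.18 points became -0.30 and -0.26. The inner tile level of 84.6% became 84.7% without a coverage minimum and 83.8% at 50. The GENCODE rule, the tile minimums and the promoter settings were chosen after seeing the data. Leaving out each mouse in turn was not run, since values per mouse were not used here. No paired analysis was possible because the labels give no replicate numbers shared between groups. Coverage limits the tiles most: their median of 55.8 inside very long genes compares with 2822 for whole bodies.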
